A study of Homo sapiens with 16 samples.

Results

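The region of chromosome 7 around *GNAI1* and *CD36*, from 79.60 to 80.45 Mb in hg19, was described peak by peak in maps of 2 histone acetylation marks from epithelial ovarian cancer (EOC) cell lines. It was chosen by the H3K27ac peak lists of cisplatin-resistant A2780cis cells and their cisplatin-sensitive parent A2780, as the site of the largest cluster of peaks found in A2780cis and missing in A2780, so the H3K27ac difference of this pair is a description of how the region was picked and not a finding. Of the 179689 peaks in the 8 deposited lists, 73 lie in this window of 850 kb. They come from 4 lists, while the other 4 lists hold no peak in it.

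H3K27ac was profiled by ChIP-seq in 6 conditions and H3K9ac in 2, with 1 library per condition. A2780, from an endometrioid adenocarcinoma and sensitive to cisplatin (cPt), was profiled for both marks together with A2780cis, its resistant derivative. CAOV4, a high-grade serous line, and CAOV4cis, made from CAOV4 by prolonged exposure to increasing cPt, were profiled for H3K27ac. Both resistant lines are kept in medium with cPt. A2780 Tet-on cells with the doxycycline-induced hairpin shMBD3.26 or shMBD3.232, which target *MBD3*, were also profiled for H3K27ac after selection, 1 week of knockdown and sorting for GFP. Untransduced A2780 served as their reference, since control-shRNA cells were not analysed here. Each resistant line is 1 derivative of its parent, mononucleosomes of every sample carried a fly spike-in of 5%, and no difference below has a replicate behind it. The depth of reads behind a peak is unknown. The lists hold between 15365 peaks (A2780cis H3K9ac) and 28662 peaks (A2780 H3K27ac), and A2780cis has the shorter list of its pair in both marks.

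H3K27ac marks active enhancers and promoters, and H3K9ac is found mostly at active promoters and at part of the active enhancers. Long runs of H3K27ac peaks are often described as enhancer clusters or super-enhancers. *GNAI1* encodes an inhibitory G protein alpha subunit, which couples receptors to a fall in cyclic AMP. *CD36* encodes a scavenger receptor of the cell surface that binds oxidized lipoproteins and takes up long-chain fatty acids. In the RefSeq order of protein-coding genes, *GNAI1* follows *MAGI2*, a scaffold protein gene, and is followed by *GNAT3*, which encodes the taste-cell G protein subunit gustducin, by *CD36* and by *SEMA3C*, which encodes a secreted guidance protein. *GNAI1* is taken here as 79.76 to 79.85 Mb, with its start at the lower position since it lies on the plus strand, and the *CD36* interval as 79.99 to 80.31 Mb. Without gene models on hg19 no gene was placed within the *CD36* interval, which may also hold *GNAT3*. On GRCh38.p14 the listed promoters begin at 80134581 for *GNAI1*, 80512015 for *GNAT3* and 80601957 to 80646196 for *CD36*. The *CD36* interval thus begins nearer to *GNAI1* than the first listed *CD36* start does on that build. All wide peaks of the interval, the last of which ends at 80107800, may therefore lie before every listed *CD36* start, which was not tested. Peaks there are named by the interval and are not assigned to *CD36*.

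The promoters of both genes are shown because the start of *GNAI1* is 1 of 3 places with H3K27ac peaks in A2780cis and both CAOV4 lines, and because the start regions of the genes differ in base composition. The sequences are those of RefSeq on GRCh38.p14, with 250 bases before and 50 bases after the first listed start. Their positions are not on the build of the peaks and cannot be set beside peak positions. The first, of *GNAI1*, is chr7:80134581-80134880 on the plus strand and the second, of *CD36*, is chr7:80601957-80602256 on the plus strand, and capitals mark each CG.
GNAI1: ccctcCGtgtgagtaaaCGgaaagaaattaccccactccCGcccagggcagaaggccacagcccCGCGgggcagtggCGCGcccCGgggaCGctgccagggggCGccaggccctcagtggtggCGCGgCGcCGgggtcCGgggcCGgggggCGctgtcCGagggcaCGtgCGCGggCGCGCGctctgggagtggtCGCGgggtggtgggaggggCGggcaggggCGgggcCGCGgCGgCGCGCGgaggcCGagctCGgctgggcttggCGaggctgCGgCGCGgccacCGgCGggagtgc
CD36: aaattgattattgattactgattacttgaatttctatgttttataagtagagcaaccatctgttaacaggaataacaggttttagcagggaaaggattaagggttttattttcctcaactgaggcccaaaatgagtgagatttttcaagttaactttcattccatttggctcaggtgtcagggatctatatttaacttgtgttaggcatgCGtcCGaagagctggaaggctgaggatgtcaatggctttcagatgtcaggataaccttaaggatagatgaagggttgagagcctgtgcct
The *GNAI1* promoter has a GC content of 79.7% and 42 CG dinucleotides, more than 94.2% of the 35116 RefSeq promoters, which have a median of 14. Searched on both strands, it holds 3 copies of the GC box GGGCGG, which 45.0% of all promoters hold at least once. The second *GNAI1* start listed has 18 CG dinucleotides. All 6 *CD36* starts are poor in CG, with 1 to 3 each and a GC content of 35.0% to 43.7%. The *CD36* sequence above holds 1 match to TATAAA, which 11.5% of all promoters hold on either strand, and none of GGGCGG or CCAAT. This match is on the opposite strand and well before the start, so it was not read as a TATA box. The single *GNAT3* start, with 2 CG dinucleotides and 2 matches to TATAAA over both strands, is likewise poor in CG.

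A2780 had no H3K27ac peak anywhere in the window, whereas A2780cis had 24 that together covered 312.0 kb, or 36.7% of it. All 24 merged regions of this pair were therefore listed in A2780cis and not in A2780, and over the whole lists such regions made up 17.9% of 32379. The peaks of A2780cis here were wide. They ranged from 0.2 to 54.6 kb with a median of 7.5 kb, against a median of 2.8 kb over the whole list, and 8 of the 24 reached 10 kb, against 8.45% of the list. The 2 widest ranked 64 and 67 of 20899 peaks by width. These widths, and the H3K27ac cluster ranks below, come from the list that chose the region. They describe that choice and are not a separate finding.

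**Figure D1:**
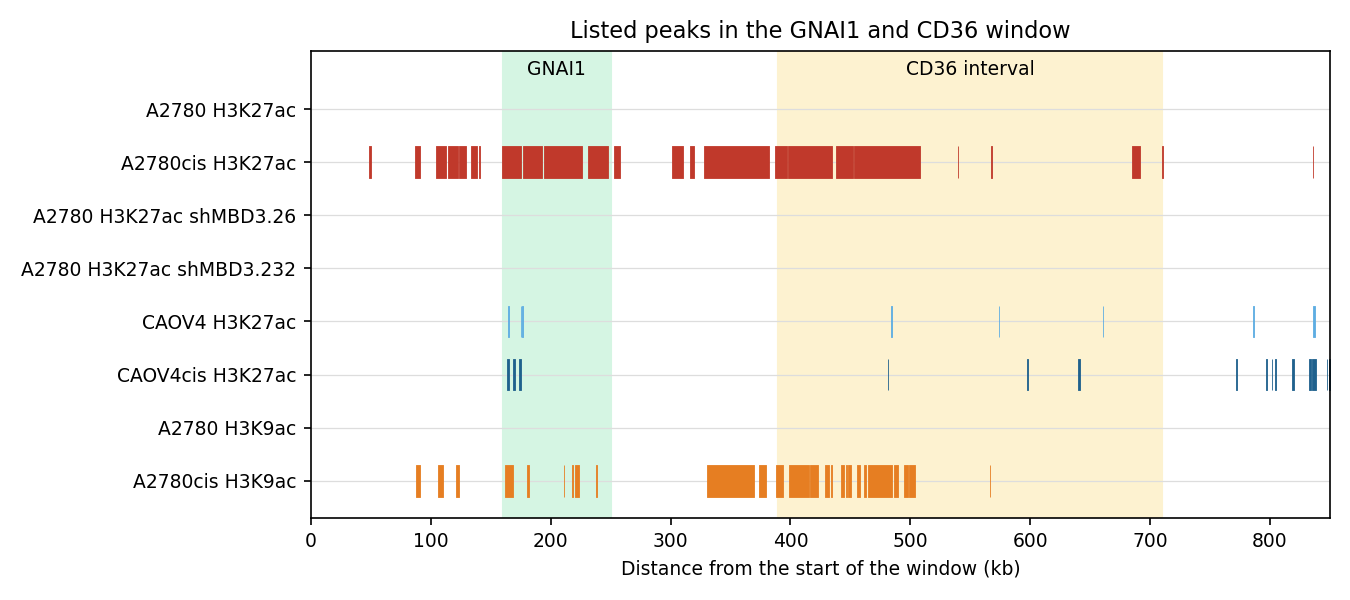
Peaks of the 8 lists drawn to scale as bars along the window, with the distance from its start in kb on the horizontal axis and 1 row per list. The rule's *GNAI1* and *CD36* intervals are shaded. The rows of A2780 and of both *MBD3* shRNAs are empty, A2780cis carries blocks of wide peaks over *GNAI1* and up to the first part of the *CD36* interval, and the CAOV4 rows hold short peaks at the start of *GNAI1* and toward the far end.

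The H3K27ac domain of A2780cis began with scattered, narrower peaks on the side of *MAGI2*. No peak preceded it for 1958.6 kb, and the first ones, at 79648001 to 79650200 and 79686801 to 79690800, were 2.2 and 4.0 kb wide. A first block of 5 peaks followed between 79704001 and 79741200, with widths of 8.4, 8.2, 6.0, 5.2 and 1.4 kb. In the 160 kb before *GNAI1*, 35.8 kb or 22.4% lay in peaks.

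*GNAI1* itself was almost filled in A2780cis. The 4 peaks that reached into it covered 80 of its 90 kb, or 88.9%. The first lay at 79759601 to 79775600 across the start of the interval and was 16.0 kb wide, the second at 79776601 to 79792600 was also 16.0 kb, the third at 79794401 to 79826400 was 32.0 kb and the last at 79831001 to 79847400 was 16.4 kb. Only short gaps of 1.0, 1.8 and 4.6 kb parted them. A further peak of 5.0 kb came just after the interval, at 79853201 to 79858200. With peaks up to 12.5 kb apart joined, these 5 formed a cluster that spanned 98.6 kb, of which 85.4 kb lay in peaks, and by that covered length it ranked 85 of 12915 clusters in A2780cis.

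After a gap of 42.6 kb a second and larger cluster ran from 79900801 to 80107800. It spanned 207.0 kb, held 182.2 kb in 7 peaks and ranked 9 of 12915 by covered length. Its beginning, in the 140 kb between the 2 genes' intervals, had peaks of 9.6 and 3.4 kb and then a single peak of 54.0 kb at 79928201 to 79982200. The *CD36* interval was entered by a peak of 9.6 kb at 79987201 to 79996800. Peaks of 37.2 kb at 79997801 to 80035000, of 13.8 kb at 80038001 to 80051800 and of 54.6 kb at 80053201 to 80107800 then followed with gaps of 1.0, 3.0 and 1.4 kb.

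The acetylated stretch stopped well short of the end of the *CD36* interval. Up to 80107800, 95.4% of the interval's first 117.8 kb lay in H3K27ac peaks of A2780cis. In the remaining 202.2 kb the share was 3.86%, from 2 peaks of 0.4 kb at 80139601 and 80167601, 1 of 6.8 kb at 80284601 to 80291400 and 1 of 1.2 kb at 80309801 to 80311000. The whole interval was thus covered to 37.6%, less than *GNAI1*, in spite of holding the widest peak of the window. Beyond it 1 more peak, of 0.2 kb at 80436001, fell inside the window.

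**Figure D2:**
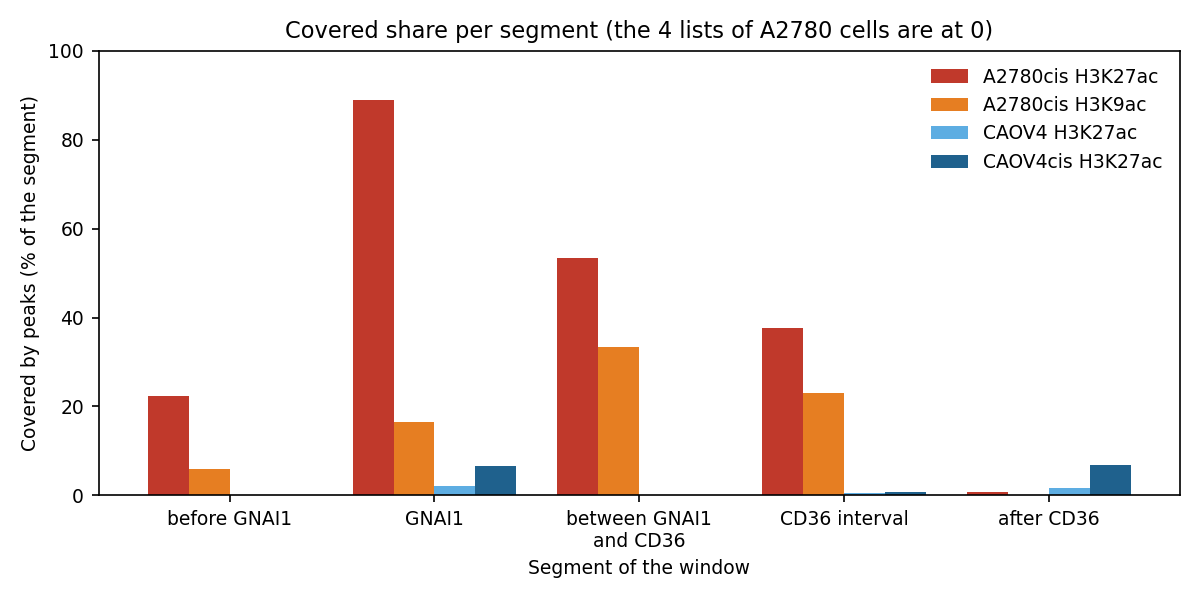
Share of each of the 5 segments of the window covered by peaks, in percent, as 1 bar per list, for the stretch before *GNAI1*, *GNAI1*, the stretch between, the *CD36* interval and the stretch after it. A2780cis H3K27ac reaches 88.9% over *GNAI1*, where A2780cis H3K9ac covers 16.4%, and both marks lie at 0.857% or less after the *CD36* interval, where CAOV4cis has its highest share of 6.86%.

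H3K9ac, which played no part in the choice of the region, was absent from the window in A2780 as well and present in A2780cis. The A2780cis list held 26 H3K9ac peaks here, which covered 144.6 kb or 17.0% of the window. All 26 merged regions of the pair were in A2780cis alone, against 21.7% of 27575 over the whole lists. Most H3K9ac peaks of A2780cis overlap H3K27ac, 82.4% over the whole list, so this contrast is not independent of the choice of the region. Other windows with more H3K27ac in A2780cis are set beside it below. The peaks measured 0.2 to 39 kb with a median of 3.2 kb, against 2.6 kb for the list, and 3 of the 26 reached 10 kb, against 4.37% of the list.

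Nearly all H3K9ac peaks lay on H3K27ac. Of the 26, 25 overlapped an H3K27ac peak of the same line, or 96.2% (95% Wilson interval 81.1 to 99.3), and 24 were wholly inside one. Over the whole list the share that overlapped was 82.4% (81.8 to 83.0). The exception was a peak of 0.2 kb at 80166401, which lay 1.0 kb from the nearest H3K27ac peak. Intervals cover counting error only, and neighboring peaks of 1 library are not independent.

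The reverse did not hold, since most of the H3K27ac length had no H3K9ac. Of the 312.0 kb with H3K27ac, 143.6 kb also had H3K9ac, or 46.0%, near the 50.6% of the whole lists. Within H3K27ac peaks of 10 kb or more this share of length was 53.5% in the window, below the 63.8% of all such peaks. An H3K9ac peak was present on 12 of the 24 H3K27ac peaks, with an interval of 31.4 to 68.6%, against 52.9% (52.3 to 53.6) of all H3K27ac peaks of A2780cis. All 8 H3K27ac peaks of 10 kb or more carried one (67.6 to 100%), as 96.5% of such peaks did over the list. Of the 11 peaks over 2 and under 10 kb, 4 carried one, or 36.4% (15.2 to 64.6), and here the whole list stood at 69.4% (68.5 to 70.2). None of the 5 peaks of up to 2 kb did (0 to 43.4%), against 20.1% (19.2 to 21.0) of the list. H3K27ac peaks with H3K9ac had a median width of 16.0 kb (4.0 to 54.6 kb) and those without it a median of 2.8 kb (0.2 to 9.6 kb).

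**Figure D3:**
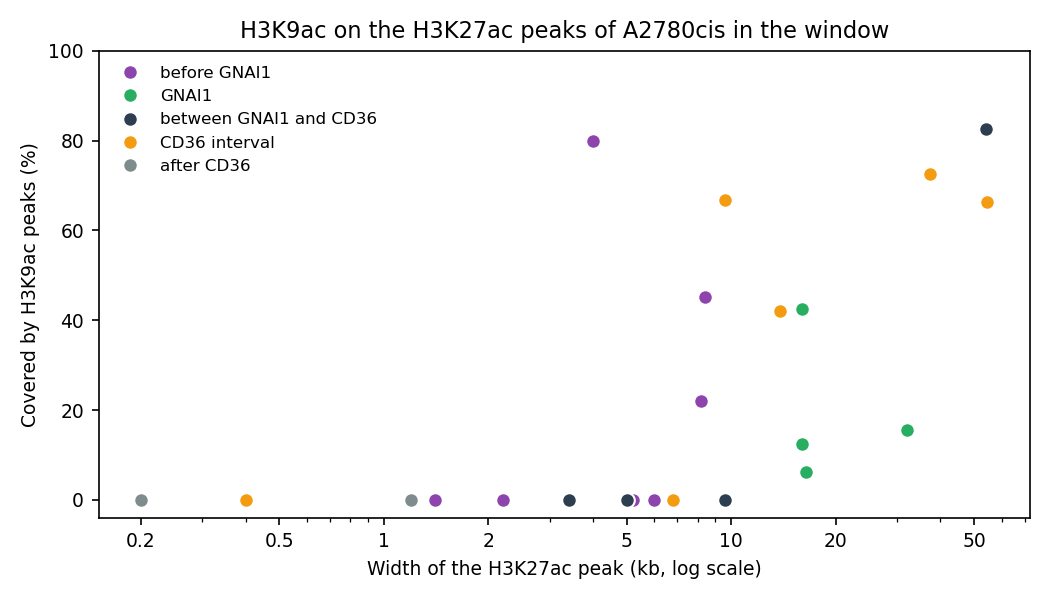
Share of each A2780cis H3K27ac peak that H3K9ac peaks of the same line cover, in percent, against the width of the H3K27ac peak in kb on a log scale, with 1 point per peak and colors for the segments. The 4 peaks over *GNAI1* lie at 6.10% to 42.5%, and the peaks of 10 kb or more in the *CD36* interval and in the stretch before it at 42.0% to 82.6%.

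The share of H3K27ac length with H3K9ac differed along the window. It was 24.6% before *GNAI1*, 18.5% over *GNAI1*, 62.6% between the genes and 60.9% in the *CD36* interval, and 0% of the 1.2 kb after it. At the start of *GNAI1* a peak of 6.8 kb at 79762001 to 79768800 was by far the widest H3K9ac peak of the gene and covered 42.5% of the first H3K27ac peak. The H3K27ac peaks that followed along the gene had 12.5%, 15.6% and 6.10% of their length covered, by 5 H3K9ac peaks of 0.2 to 3.6 kb. Among the 7 H3K27ac peaks that ended before the gene, the one at 79686801 to 79690800 was covered to 80%, the next, at 79704001 to 79712400, to 45.2% and the one at 79714401 to 79722600 to 22%, while the other 4 had no H3K9ac.

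In the large cluster, H3K9ac was broad. It resumed after a stretch of 91.6 kb without a peak, with one of 39 kb at 79930401 to 79969400, which ranked 47 of 15365 by width, and with a peak of 5.6 kb beside it. Both lay in the H3K27ac peak of 54.0 kb and covered 82.6% of it. In the *CD36* interval the widest H3K9ac peaks were one of 16.6 kb at 79998601 to 80015200 and one of 20.4 kb at 80064601 to 80085000. The H3K27ac peak of 37.2 kb was covered to 72.6% by 4 H3K9ac peaks, the peak of 13.8 kb to 42.0% by 3, and the peak of 54.6 kb to 66.3% by 6. With peaks up to 12.5 kb apart joined, 16 H3K9ac peaks formed a cluster from 79930401 to 80103800 with 120.0 kb in peaks, which ranked 13 of 10095 in its list. It ended 4.0 kb before the H3K27ac cluster did. Over the last 5 H3K27ac peaks of the window no H3K9ac peak was listed.

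**Figure D4:**
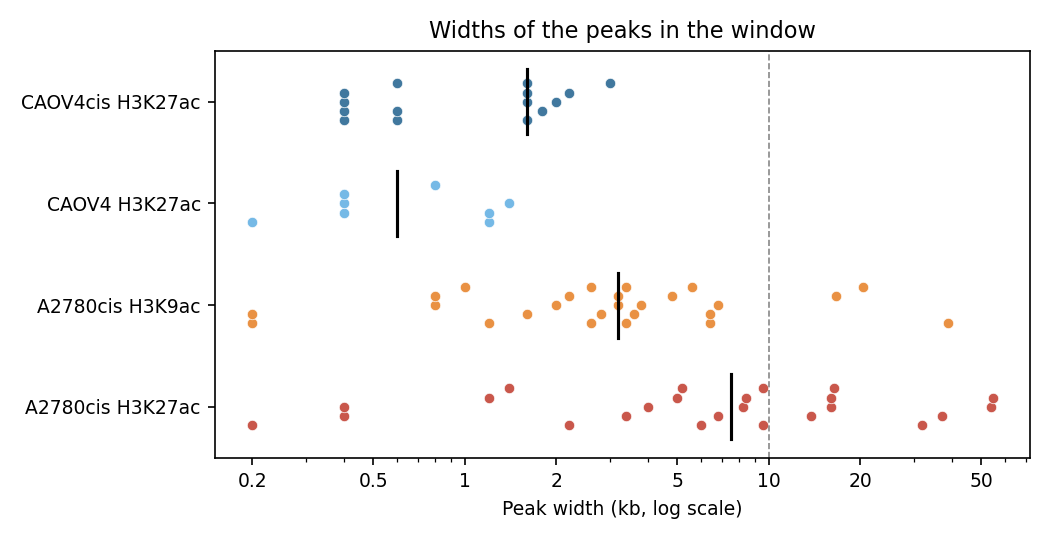
Width of each peak in the window in kb on a log scale, with 1 point per peak, a bar at the median and a dashed line at 10 kb, for the 4 lists with peaks there. A2780cis H3K27ac (median 7.5 kb) reaches 54.6 kb and A2780cis H3K9ac (3.2 kb) 39 kb, whereas no peak of CAOV4 (0.6 kb) or CAOV4cis (1.6 kb) exceeds 3.0 kb.

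The *MBD3* shRNAs were expressed in the parental line, which had no peak in the region without them. Neither shMBD3.26 nor shMBD3.232 gave an H3K27ac peak in the window, so both lists differed from A2780 by 0 percentage points of covered length. The stretch without a peak was the same in all of these lists and much longer than the window. It ran from 77649801 to 80547800 in A2780 and with shMBD3.26, over 2898 kb, and ended 0.2 kb further with shMBD3.232. Gaps of this size are uncommon, since it ranked 101 of 28641 gaps between neighboring peaks in A2780, where the median gap was 12 kb. An empty window of 850 kb was less unusual, since 754 of 3018 other windows held no peak in A2780 or with the shRNAs. Windows over unassembled sequence, where no peak can be called, were not set apart and may raise this count. For H3K9ac, the peak-free stretch of A2780 was longer still, with 3666.6 kb from 77445801 to 81112400. A list with no peak says that none was called and gives no level of acetylation.

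The CAOV4 lines carried few and short H3K27ac peaks in the window. CAOV4 had 8 peaks of 0.2 to 1.4 kb, which covered 6.0 kb or 0.706% of it, and CAOV4cis had 15 of 0.4 to 3.0 kb, which covered 18.2 kb or 2.14%. The median widths of 0.6 and 1.6 kb lie below the 2.2 kb of both whole lists. The difference of 1.44 percentage points between the resistant and the parental line is small beside the 36.7 points of the A2780 pair, which chose the region. Of the 20 merged regions of the pair, 3 were in both lists, 5 in CAOV4 alone and 12 in CAOV4cis alone, with an interval of 38.7 to 78.1%, against 33.8% of 32982 over the whole lists.

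At the start of *GNAI1*, where A2780cis had both marks, both CAOV4 lines had H3K27ac. CAOV4 had a peak of 1.2 kb at 79764001 to 79765200 and CAOV4cis one of 1.8 kb at 79763601 to 79765400, and both lay within the A2780cis peaks of H3K27ac and H3K9ac at this place. A second pair followed within the same H3K27ac peak of A2780cis, with 0.4 kb in CAOV4 at 79774801 to 79775200 and 2.0 kb in CAOV4cis at 79773201 to 79775200. CAOV4cis had a further peak of 2.2 kb between them, at 79768201 to 79770400, and CAOV4 one of 0.2 kb at 79776401. None was found along the rest of *GNAI1* in either line. In all, *GNAI1* was covered to 2.0% in CAOV4 and 6.67% in CAOV4cis.

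The *CD36* interval was nearly bare in the CAOV4 lines, with 3 peaks each and a covered share of 0.625% in CAOV4 and 0.812% in CAOV4cis. The CAOV4 peaks measured 1.2 kb at 80083801, 0.4 kb at 80173801 and 0.4 kb at 80260601. Those of CAOV4cis measured 0.4 kb at 80081401, 0.6 kb at 80197401 and 1.6 kb at 80240201. The first peak of each line lay within the widest A2780cis peak, 2.0 kb from one another, and no peak of the interval was shared by both lines. Neither line had a peak before *GNAI1* or between the 2 intervals, where A2780cis had 22.4% and 53.4% of the length in H3K27ac.

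After the *CD36* interval the CAOV4 lines had more H3K27ac than A2780cis. In these 140 kb CAOV4cis had 9 peaks and 6.86% covered, CAOV4 2 peaks and 1.57%, and A2780cis 2 peaks and 0.857%. The 1 place with a peak in all 3 lines was at 80436001, where A2780cis had its 0.2 kb, CAOV4 1.4 kb and CAOV4cis 3.0 kb from 80435401 to 80438400. The other 8 CAOV4cis peaks, between 80372001 and 80450600, had no partner in CAOV4 and were 0.4 to 1.6 kb wide.

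Across all lines and marks, the 73 peaks merged into 39 regions. Of these, 22 held peaks of A2780cis alone, 14 peaks of the CAOV4 lines alone and 3 peaks of both. The shared 3 were the start of *GNAI1*, the last wide peak in the *CD36* interval and the place at 80436001. By length the sharing was unequal, since 3.0 kb in peaks of both A2780cis and CAOV4 made up 0.962% of the A2780cis H3K27ac length and 3.0 of the 6.0 kb of CAOV4. With CAOV4cis, 6.6 kb were shared, which was 2.12% of the A2780cis length and 36.3% of that of CAOV4cis.

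To see how the window compares with the rest of the genome, the same shares were taken in 3018 other windows of 850 kb. H3K27ac was at least 10 percentage points higher in A2780cis than in A2780 in 1.56% of them and at least 10 points lower in 2.02%. For H3K9ac these shares were 1.03% and 0.563%. Windows over unassembled sequence, where no peak can be called, were not set apart. These shares, and those over windows given below, may therefore be too low. The H3K27ac difference of the *GNAI1* and *CD36* window, 36.7 points, exceeded that of every other window, the highest of which had 33.7, as the choice of the region would have it. Its H3K9ac difference of 17.0 points ranked 9, below a highest value of 30.3. Of the 47 other windows with at least 10 points more H3K27ac in A2780cis, 27 also had at least 10 points more H3K9ac. The median H3K9ac difference among the 47 was 11.0 points.

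**Figure D5:**
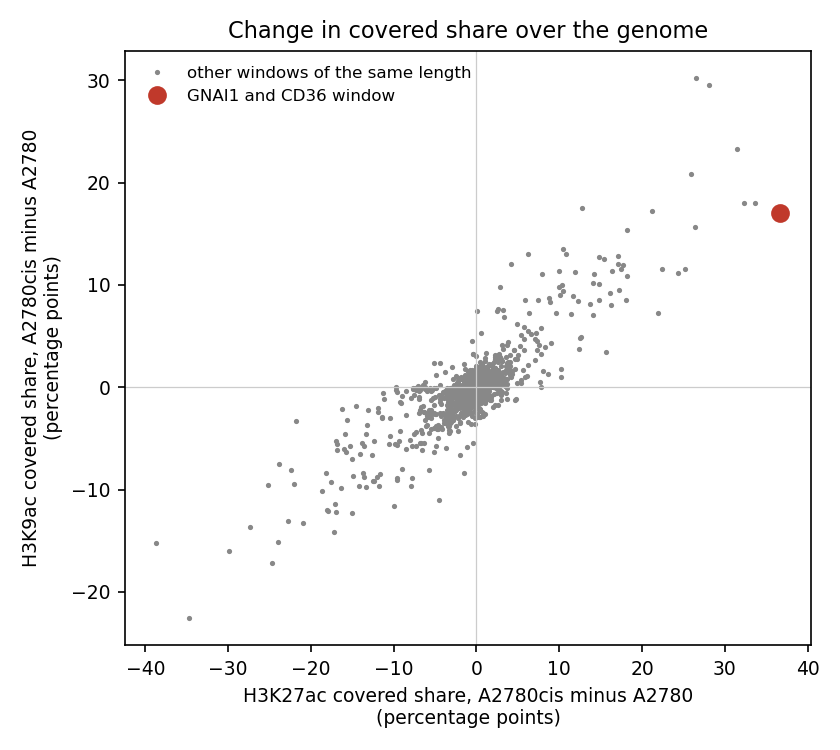
Difference in covered share between A2780cis and A2780, in percentage points, for H3K27ac on the horizontal and H3K9ac on the vertical axis, with 1 point for each of 3018 other windows of 850 kb and a marked point for the *GNAI1* and *CD36* window. The marked window lies farthest to the right, at 36.7 points of H3K27ac, with 17.0 points of H3K9ac, while 8 other windows lie above it.

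The 4 lists of A2780 and the *MBD3* shRNAs were all without a peak in 754 of the other windows, and A2780cis had at least 10% of the length in H3K27ac in 0.928% of these. The highest of those 7, on chromosome 6 from 140250001, had 24.3% in H3K27ac and 11.2% in H3K9ac, against 36.7% and 17.0% at *GNAI1* and *CD36*. The 36.7% is the share that chose the region. In the CAOV4 pair, 0% of the windows were 10 points higher in CAOV4cis. The highest reached 8.99 points, and the 1.44 points found here ranked 320. Windows that differed by 10 points from A2780 made up 0.729% with shMBD3.26 and 0.497% with shMBD3.232.

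The window whose shares in the 8 lists were nearest to those of *GNAI1* and *CD36* lay on chromosome 3, from 85000001 to 85850000, at a distance of 4.77 percentage points over the 8 shares, where the median of all windows was 39.9. Both distances include the A2780cis H3K27ac share, by which the region was chosen, so the contrast between them is not a separate finding. There A2780cis had 32.5% in H3K27ac and 18.0% in H3K9ac, A2780 0.0941% and 0%, and the CAOV4 lines 0.141% and 0.282%. The next 2, both at a distance of 10.6, lay on chromosome 1 from 69700001 and on chromosome 6 from 75650001. In these A2780cis had 26.4% and 28.1% in H3K27ac and 15.7% and 12.8% in H3K9ac. On chromosome 6 A2780 had 2.94% and was not empty, unlike at *GNAI1* and *CD36*. The likeness is one of covered length over 8 libraries.

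The edges of the window were set by position and cut through 1 peak, that of CAOV4cis at 80449001 to 80450600. Just outside, A2780cis had its next H3K27ac peak at 80486001 to 80489800, of 3.8 kb, and its next H3K9ac peak, of 0.2 kb, at 80484801. The peaks of CAOV4 and CAOV4cis that came next were at 80456401 and 80455201. On the other side, the last H3K27ac peak of A2780cis ended at 77689400, and those of CAOV4 and CAOV4cis at 78902800 and 78852600. Just inside, the first A2780cis peaks were those at 79648001 for H3K27ac and 79687401 for H3K9ac.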

How the data were processed

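H3K27ac and H3K9ac ChIP-seq peak lists were analysed, 1 per condition. The authors aligned reads to GRCh37 (hg19) with Bowtie2 on Galaxy, quantile normalized the data with a custom R script and called peaks per sample with MACS2. Versions are not given in the sources used here. The deposited lists give the start and end of each peak, while the deposited score, always 0, was left aside. Boundaries fall on multiples of 200 bp in every row except 1, and neighboring peaks are separated by 1000 bp or more, so widths and gaps depend on steps that are not given in the sources used here. The 6 rows off chromosomes 1 to 22, X and Y were left out. Read depth is unknown, and the input libraries were not analysed here.

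Peaks touching the window were taken and clipped to it for covered length. Peaks sharing at least 1 bp were merged, and peaks up to 12.5 kb apart were joined into clusters ranked by covered length. Shares carry 95% Wilson intervals, which cover counting error only. With 1 library per condition no test was run. Differences of at least 10 percentage points in covered share were counted over windows of 850 kb, the 2 that overlap the region left out, and distances between windows are Euclidean over the 8 shares. Every peak of the window was accounted for, and those named by position were the wide ones, those at either gene and those at the edges. The members, the gene lists and the comparisons were chosen with earlier results of these data known. Gene lists of G protein signaling and fatty acid uptake and markers of epithelial ovarian cancer cells were not analysed here, since they need an annotation of GRCh37. The labelled cell type was therefore not checked. RefSeq of GRCh38.p14 gave gene order and promoter sequences for GNAI1, GNAT3 and CD36. Merging of list pairs and covered length were tested on simulated data, while the joining of peaks into clusters was not. Python 3.11.15, numpy 2.4.6, SciPy 1.17.1 and matplotlib 3.10.9 were used. Alternatives changed the peaks used, the overlap, the window edges, the joining distance and the threshold.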

Additional observations from a re-analysis of the deposited data

How the results depend on the processing

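The H3K27ac difference of 36.7 points between A2780cis and A2780 became 47.0 with the window narrowed by 100 kb on each side and 30.2 with it widened, and stayed between 36.0 and 36.3 with narrower peaks left out. For H3K9ac the 17.0 points became 15.2 with the wider 50% of each list, 21.8 with the narrowed and 13.8 with the widened window. The CAOV4 difference of 1.44 points became 0.612 with peaks over 2 kb, 0.353 with the wider 50%, 1.06 with the 15365 widest peaks of each list, 0.738 narrowed and 3.20 widened. It was positive under each of these, but its size rested on short peaks and on the edges. In the widened window shMBD3.26 differed from A2780 by -0.0762 and shMBD3.232 by -0.0952 points, through the peak near 80548001 that it takes in. The share of H3K27ac length with H3K9ac, 46.0%, became 42.3% with the wider 50%. Windows with more H3K9ac in A2780cis, 1.03%, became 2.19% at a threshold of 5 points and 0.133% at 20. The other 25 values moved less than the limits set for them, which differ between kinds of value. Among them are the 24 regions of A2780cis alone and the 182.2 kb of the largest cluster. Without short peaks the regions became 19, a larger relative fall than that of H3K9ac from 17.0 to 15.2 points. The cluster became 169.2 kb with peaks up to 5 kb apart joined. No paired analysis was possible because each condition had 1 library. Depth behind a peak is unknown, so whether a missing peak falls just under the caller's threshold was not tested.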

Other observations

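Just beyond the window, from 80450001 to 80577800 on chromosome 7, the CAOV4 lines carried more H3K27ac than A2780cis, unlike over *GNAI1* and the *CD36* interval. CAOV4cis had 16 H3K27ac peaks that covered 60.8 kb of these 127.8 kb, or 47.6%, and CAOV4 had 11 that covered 37.0 kb, or 29.0%. A2780cis had 2 peaks and 5.63%, and A2780, with 1 peak, 1.41%. The CAOV4cis peaks at the end of the window were the first of this group, since with peaks up to 12.5 kb apart joined they formed a cluster from 80432601 to 80506000 with 11 peaks and 30.6 kb in them. This stretch was chosen after its values were seen.

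It also held the first place after the region with a peak in all 6 H3K27ac lists. The peak began at 80547801 and was 1.8 kb wide in A2780, began at 80546401 and was 3.4 kb wide in A2780cis, and was 1.0 kb wide with shMBD3.26 and 0.8 kb with shMBD3.232. In CAOV4 and CAOV4cis the peaks there were 10.4 and 11.2 kb wide. No H3K9ac peak was listed at this place in A2780 or A2780cis.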
